A study of Homo sapiens with 3 samples.

Results

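The genes described here are the CDK inhibitors CDKN1A, CDKN1B, CDKN1C, CDKN2A, CDKN2B and CDKN2C and the G1 cyclins CCND1, CCND3, CCNE1 and CCNE2, chosen by name and not by their values. Their probes were taken from the annotation of the array platform. It gave 10 probes for 9 of the 10 genes, out of 24460 gene probes for 18639 genes on the array. CCNE1 had 2 probes and the others had 1 each. No probe carried the name of CDKN2C, which is not analysed here. The signals come from HT29, an established human colorectal cancer cell line, exposed for 24 h to 5 or 20 µM of a derivative of linderapyrone or, as the solvent control, to DMSO. Linderapyrone is known as an inhibitor of Wnt signalling. Total RNA of each group was hybridised to 1 single-colour array, so there were 3 arrays, no replicates and no test. Titles of the samples write mM where the other labels write µM, and µM was used.

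Progress from G1 into S phase is driven by cyclin-dependent kinases (CDKs). D-type cyclins activate CDK4 and CDK6, E-type cyclins activate CDK2, and the phosphorylation of the retinoblastoma protein by these kinases frees E2F factors to transcribe the genes of DNA replication. The INK4 inhibitors (p16 from CDKN2A, p15 from CDKN2B, p18 from CDKN2C) block CDK4 and CDK6, whereas the CIP/KIP inhibitors (p21 from CDKN1A, p27 from CDKN1B, p57 from CDKN1C) bind cyclin-CDK complexes more broadly. In the intestinal epithelium p21 is known as a marker of cells that leave the cycle as they differentiate, and CCND1 is a textbook target of beta-catenin.

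The promoters of the 3 genes with the largest differences are shown, because their products act on opposite sides of the G1 kinases and their signals differed in opposite directions. RefSeq sequence on GRCh38.p14 was used. Each run is read 5′ to 3′ on the gene's strand. Those of CDKN1A and CCNE1 hold the 250 bases before the start, and that of CDKN2B holds 242, without the last 8, which lie inside the annotated gene. Capitals mark the GC box, GGGCGG, on either strand, so that a match on the other strand reads CCGCCC. CDKN1A is shown at chr6:36678464-36678713 on the plus strand, CDKN2B at chr9:22009314-22009555 on the minus strand and CCNE1 at chr19:29811741-29811990 on the plus strand.
CDKN1A: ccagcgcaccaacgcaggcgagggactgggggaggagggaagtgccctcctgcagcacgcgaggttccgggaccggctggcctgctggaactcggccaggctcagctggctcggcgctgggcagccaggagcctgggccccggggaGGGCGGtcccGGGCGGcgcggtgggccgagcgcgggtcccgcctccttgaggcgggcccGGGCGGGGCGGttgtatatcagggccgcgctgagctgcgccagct
CDKN2B: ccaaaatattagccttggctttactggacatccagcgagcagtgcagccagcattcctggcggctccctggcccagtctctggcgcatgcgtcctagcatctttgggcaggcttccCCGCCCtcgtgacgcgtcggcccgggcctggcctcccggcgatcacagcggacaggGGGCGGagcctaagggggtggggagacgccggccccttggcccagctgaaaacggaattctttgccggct
CCNE1: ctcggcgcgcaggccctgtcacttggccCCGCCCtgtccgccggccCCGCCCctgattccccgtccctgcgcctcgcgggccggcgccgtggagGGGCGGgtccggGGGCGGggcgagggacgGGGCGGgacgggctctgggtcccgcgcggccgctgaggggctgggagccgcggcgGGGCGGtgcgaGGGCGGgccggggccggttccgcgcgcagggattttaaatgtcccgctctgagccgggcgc
The GC box, a motif bound by Sp and KLF factors, was found 4 times in the CDKN1A window, 2 times in that of CDKN2B and 7 times in that of CCNE1. The 2 matches nearest the CDKN1A start share a base. Of 35116 RefSeq promoter windows of 250 bases, 42.6% held at least 1 GC box, 24.3% at least 2 and 7.63% at least 4. At least 7 were found in 1.12%. A match describes letters and is not evidence of a bound site. A TATA box (TATAAA), an E-box (CACGTG), an AP-1 element (TGANTCA), an ATF4-C/EBP element (TGATGNAA), E2F sites (TTTCCCGC, TTTGGCGC and TTTCGCGC) and a SMAD palindrome (GTCTAGAC) had 0 matches on either strand in any of the 3 windows. Over all windows these motifs were found in 10.7%, 6.34%, 6.57%, 3.14%, 1.39%, 0.55%, 0.439% and 0.182%. The promoter table held 12 windows for 7 of the 10 genes. A CDKN2A window had 1 GC box and the other 0, the CDKN1B window had 1, and the 3 windows of CCND3 had 5, 2 and 0.

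All 10 probes were detected on all 3 arrays. Most gene probes of the array were too, 86.2% in DMSO, 85.6% at 5 µM and 85.7% at 20 µM. Detection required a spot signal above the mean of the blank and negative control spots plus 2 SD, which was 82.5 for DMSO, 79.4 for 5 µM and 80.2 for 20 µM. The median gene probe had signals of 117, 107 and 110. Before normalization, the spots of Positive Control 1 were dimmer than in DMSO by a log2 ratio of -0.47 at 5 µM and -0.36 at 20 µM. Those of Positive Control 2 stood at -0.33 and -0.26. The raw signals of the treated arrays therefore ran lower, and ratios were taken from normalized signals. Of 12 colon epithelial markers, 11 had a probe and all 11 were detected on every array, with summed signals from 59844 at 5 µM to 77310 in DMSO. The fibroblast collagens COL1A1 and COL1A2 were not detected on any array, but most fibroblast markers passed the threshold. Their count was 6 of 8 with the higher dose and 5 of 8 on each other array. DCN was the brightest, with spot signals of 231, 218 and 211, and PDGFRB had 148, 138 and 135. Of 5 endothelial markers, 3 passed on every array. Fibroblast markers had summed signals between 875.04 and 926.16 over 8 probes, and endothelial markers between 444.88 and 476.96 over 5. Of 4 blood and immune markers with a probe, 3 were detected, and LYZ, which intestinal secretory cells also make, was bright on every array. At 20 µM the fibroblast and endothelial markers COL3A1, LUM, FAP, VWF, CDH5 and KDR had log2 ratios between -0.088 and 0.078, and CD3E, CD14 and LYZ stood at -0.043, -0.20 and -0.21. In a culture measured as a whole, fewer cells of a kind and less RNA per cell cannot be told apart.

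**Figure D1:**
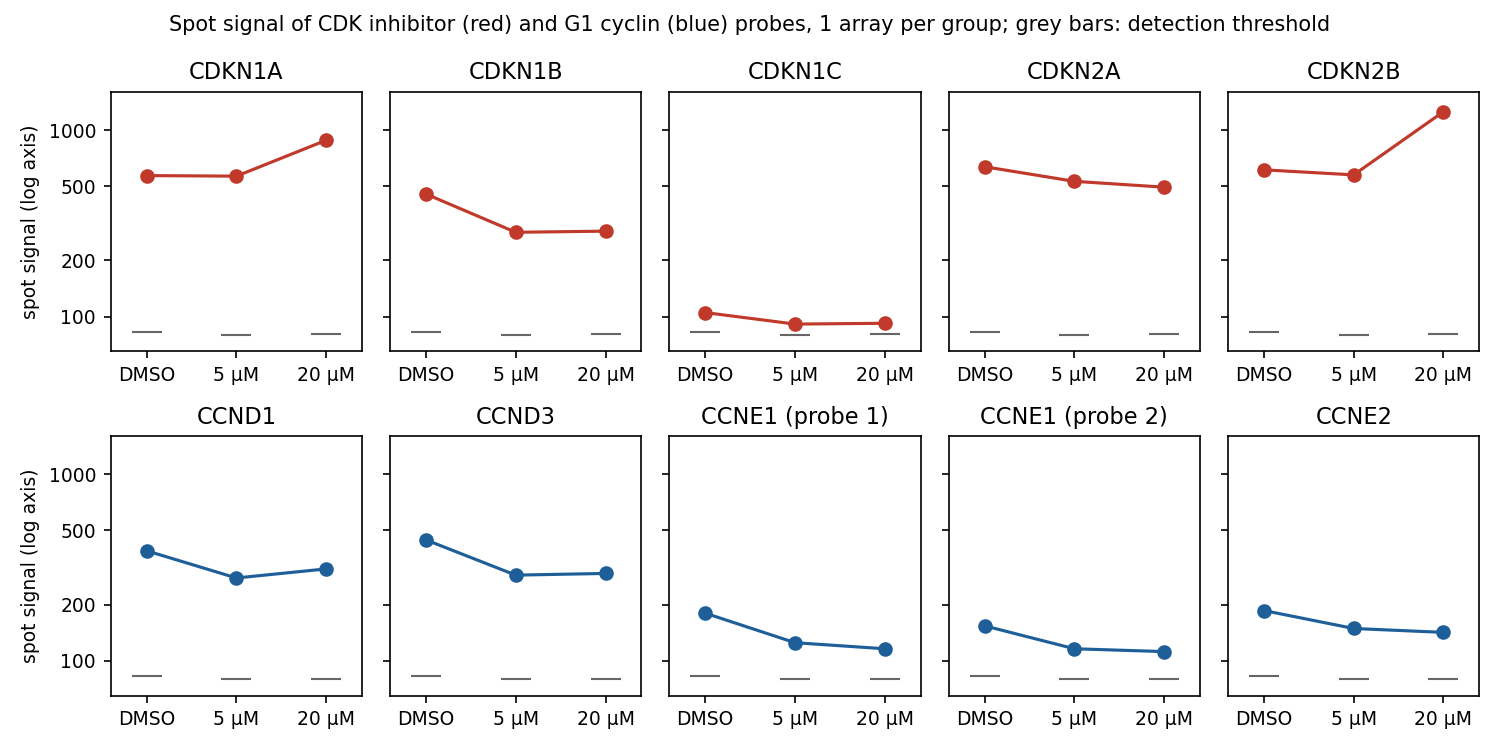
Spot signal on a log axis of each CDK inhibitor probe (red) and each G1 cyclin probe (blue) on the DMSO, 5 µM and 20 µM arrays, 1 array per group, with the detection threshold of each array as a grey bar. CDKN2B climbs from 612 in DMSO to 1255 at 20 µM, and CDKN1C stays just above the threshold.

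At 20 µM against DMSO, the inhibitors split. CDKN2B, which encodes p15, was 2.37-fold higher and CDKN1A, which encodes p21, was 1.79-fold higher, while CDKN1B, CDKN2A and CDKN1C and all 4 G1 cyclins had ratios below 0. CCNE1 was 1.54-fold lower. Thus 2 of 9 genes passed 1.5-fold on the high side and 1 on the low side, as 1.94% and 1.84% of the 16062 genes detected on both arrays did. CDKN2B also passed 2-fold, as 0.442% of all genes did, and 0 of the 9 were 2-fold lower, against 0.324%. Folds and log2 ratios, unless given for the value table or another setting, are those of corrected signal with 50 added. In these the differences of dim genes come out too small. For this comparison the log2 ratio of a single probe had an SD of 0.14, from 2007 genes with a pair of probes. That SD compares different probes of a gene on the same arrays and says nothing of the spread between cultures. It was 0.075 for dim genes and 0.17 for bright ones. In the authors' value table the SD over all these genes was 0.29. The directions of 5 of the 9 genes turned under 1 alternative, in which the scanner's own background column was used. The log2 ratios at 20 µM then were -0.49 for CDKN1A, -0.32 for CDKN2B, 0.46 for CCND1, 0.55 for CCND3 and 0.032 for CCNE1. That column rose with the spot signal and was at or above it for 1, 4 and 5 of the 10 probes on the DMSO, 5 µM and 20 µM arrays.

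The spot signal of CDKN2B was 612 in DMSO, 575 with 5 µM and 1255 with 20 µM. The array at 20 µM stood apart, and those of DMSO and 5 µM lay close together. Its log2 ratio to DMSO was 1.25 at 20 µM, with 32 of 16062 genes higher, and 0.25 at 5 µM. The step from 5 to 20 µM was 1.00, just short of 2-fold, with 21 of 16036 genes higher. In the authors' value table, which holds linear intensities with about the blank level taken off, CDKN2B stood at 252, 288 and 627. There the log2 ratio to DMSO was 1.31 at 20 µM and 0.19 at 5 µM. Over the 8 other settings of the processing, the one reported included, the ratio at 20 µM lay between 1.14 and 1.31. At 5 µM it lay between 0.033 and 0.26, the lowest under median scaling.

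CDKN2A, which encodes p16 and, from another reading frame, ARF, is the neighbour of CDKN2B on chromosome 9. Its spot signals were 636 in DMSO, 531 with 5 µM and 494 with 20 µM, without the high value that CDKN2B had at 20 µM. The log2 ratio was -0.20 at 20 µM and 0.06 at 5 µM, and for 20 against 5 µM it was -0.26. The value table gave 263, 263 and 222. MTAP, the next gene with a probe on the CDKN2A side, also lacked a high value at 20 µM, with signals of 1184, 1085 and 909. Its log2 ratios were 0.21 at 5 µM and -0.22 at 20 µM. On the CDKN2B side the next was DMRTA1, near the threshold at 81.5, 77.8 and 80.5 and detected on 1 array only. The antisense RNA CDKN2B-AS1 had no probe of its name. CDKN2A and CDKN2B are close paralogs and the probe sequences were not used here, so the extent to which a probe also binds the other transcript, or separates p16 from ARF, is unknown. The signals of CDKN2A and CDKN2B took opposite directions at 20 µM.

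CDKN1A had spot signals of 570 in DMSO, 566 with 5 µM and 882 with 20 µM, again with the 20 µM array above the others. Its log2 ratio to DMSO was 0.84 at 20 µM, with 133 of 16062 genes higher, and 0.33 at 5 µM, with 271 of 16075 genes higher. The step from 5 to 20 µM was 0.51. The value table held 232, 283 and 428, which gave log2 ratios of 0.88 at 20 µM and 0.29 at 5 µM. Over the 8 settings the ratio lay between 0.73 and 0.88 at 20 µM and between 0.12 and 0.35 at 5 µM. CDKN1A and CDKN2B were the only inhibitors with ratios above 0 at 20 µM.

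CDKN1B, which encodes p27, had spot signals of 454 in DMSO, 283 with 5 µM and 287 with 20 µM. Here DMSO stood above both treated arrays, which were alike. The log2 ratio was -0.42 at 5 µM, with 108 of 16075 genes lower, and -0.53 at 20 µM, with 406 of 16062 genes lower, and the step between the doses was only -0.11. The value table gave 177, 119 and 112, with log2 ratios of -0.57 at 5 µM and -0.67 at 20 µM. At 20 µM this gene thus lay on either side of 1.5-fold, at 1.44-fold on the normalized scale and 1.59-fold in the value table. CDKN1C, which encodes p57 and is imprinted, was dim, at 105, 91.1 and 92 and no more than 1.27 times the threshold. Its log2 ratios were -0.14 and -0.17 on the normalized scale but -0.57 and -0.64 in the value table, so the size differed by scale at signals this near the threshold.

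**Figure D2:**
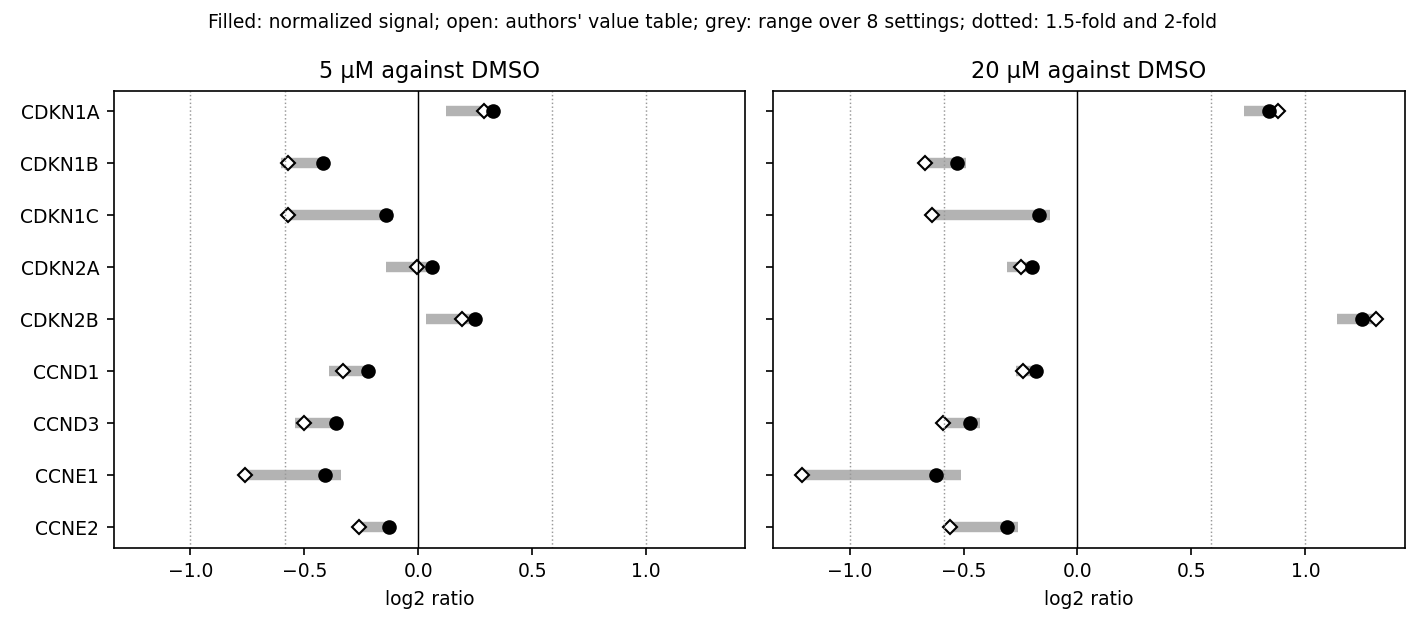
Log2 ratio to DMSO (horizontal axis) of each gene at 5 µM (left) and 20 µM (right). Filled points are normalized signal, open diamonds the authors' value table, grey bars the range over 8 settings other than the scanner's background column, and dotted lines 1.5-fold and 2-fold. CDKN1A and CDKN2B lie right of 0 at 20 µM, and CCNE1 reaches -1.21 in the value table.

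Among the cyclins, CCNE1, whose product cyclin E1 activates CDK2 at the start of S phase, had the lowest ratio. The probe that stands for the gene had spot signals of 180 in DMSO, 125 with 5 µM and 116 with 20 µM. The other probe had 154, 116 and 112. On each probe DMSO was highest and 20 µM lowest. The log2 ratios at 20 µM were -0.62 and -0.43, those at 5 µM -0.41 and -0.29. At 5 µM, 117 of 16075 genes had a lower ratio than CCNE1. In the value table the first probe stood at 47.3, 27.9 and 20.4 and the other at 34.8, 22.4 and 18.2, with log2 ratios at 20 µM of -1.21 and -0.94. The gene was short of 1.5-fold without background correction, at -0.51, and as the mean of its probes, at -0.53. CCNE2, which encodes cyclin E2, had signals of 186, 149 and 142 and log2 ratios of -0.13 at 5 µM and -0.31 at 20 µM, or -0.26 and -0.56 in the value table.

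CCND3, which encodes cyclin D3, had spot signals of 445 in DMSO, 288 with 5 µM and 294 with 20 µM, a pattern like that of CDKN1B, with DMSO above both doses. The log2 ratio was -0.36 at 5 µM and -0.47 at 20 µM, and the value table, at 173, 122 and 115, gave -0.50 and -0.59. CCND1, which encodes cyclin D1, had spot signals of 389, 278 and 311. Its log2 ratio was -0.22 at 5 µM, -0.18 at 20 µM and 0.043 between the doses. That step is within the SD of 0.12 of a single ratio, so no order of the doses can be read from it. The value table gave 146, 116 and 124. At 20 µM the range over the 8 settings was -0.27 to -0.16, while the background column gave 0.46.

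The 9 genes had a median log2 ratio of -0.20 at 20 µM, against 0.0071 over all genes. Ratios above 0 were found in 2 of 9 and below 0 in 7 of 9, against 52.8% and 47.1% of all genes. For the 5 inhibitors the median was -0.17 and for the 4 cyclins -0.39. By the value table, 2 of the genes passed 1.5-fold on the high side and 4 on the low side, CDKN1B, CDKN1C, CCND3 and CCNE1, as 5.70% and 7.06% of 16187 genes did. Median scaling gave 2 higher and 2 lower, and over all genes 225 higher and 502 lower in place of 312 and 295.

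**Figure D3:**
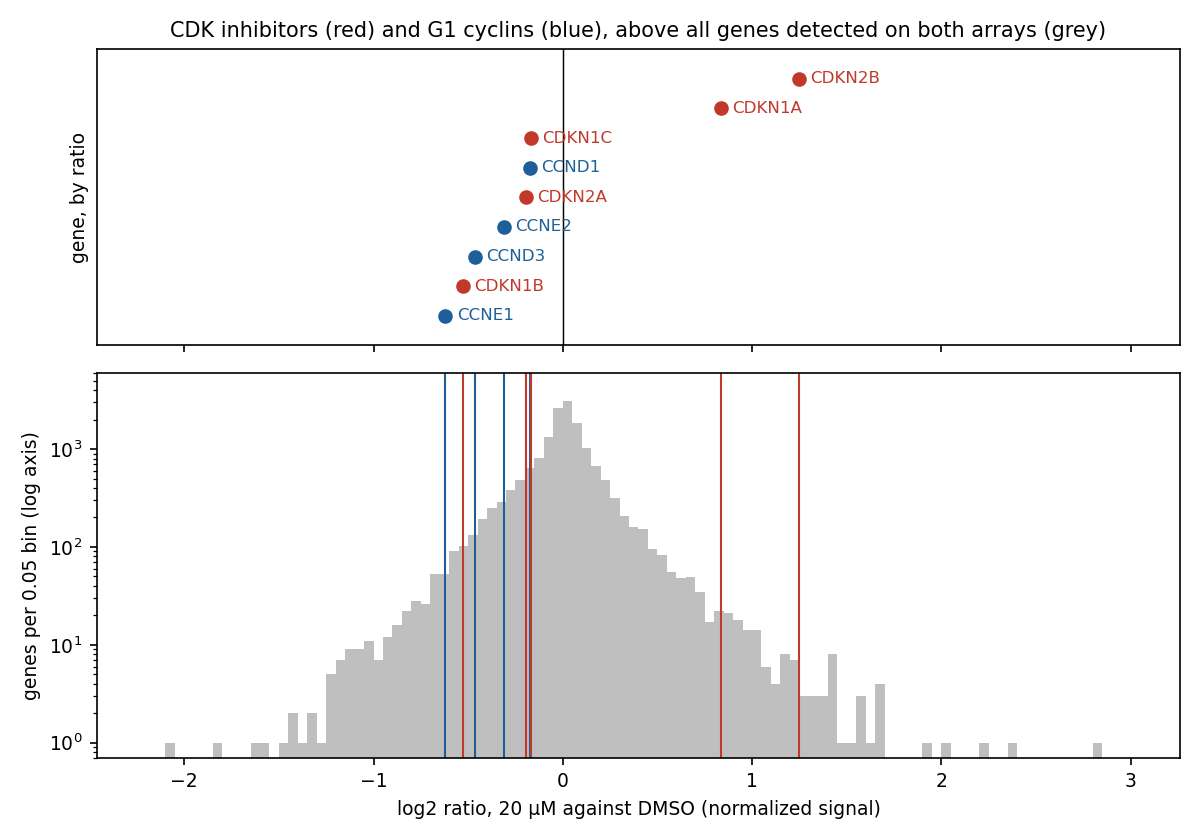
Distribution of log2 ratios for 20 µM against DMSO over 16062 genes (grey, genes per bin on a log axis) with the CDK inhibitors (red) and G1 cyclins (blue) marked and named above it. CDKN2B at 1.25 and CDKN1A at 0.84 lie in the right tail, and the remaining 7 genes lie left of 0, down to -0.62 for CCNE1.

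At 5 µM against DMSO, 0 of the 9 genes were at least 1.5-fold apart in either direction, where 0.386% of 16075 genes were at least 1.5-fold higher and 0.0871% lower. CDKN1A, CDKN2B and CDKN2A had ratios above 0 and the other 6 genes below 0, against 52.0% and 47.9% of all genes. The median was -0.14, against 0.0043 over all genes. The ratios farthest from 0 were those of CDKN1B and CCNE1, on the low side. Pairs of probes gave an SD of 0.11 here. In the value table CCNE1, at -0.76, was the 1 gene at least 1.5-fold lower, where 2.84% of 16136 genes were, and 0 were higher, against 1.83%. Median scaling also gave 1 lower, CDKN1B at -0.60, and turned the balance over all genes from 62 higher and 14 lower to 28 and 137.

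Between the doses, CDKN2B was the 1 gene at least 1.5-fold higher at 20 than at 5 µM, where 0.917% of 16036 genes were, and 0 were at least 1.5-fold lower, against 0.886%. CDKN1A followed at 1.42-fold, or 1.51-fold in the value table, where 4.57% of 16144 genes were at least 1.5-fold higher. There 0 of the 9 were lower, against 3.03%. Under median scaling 2 of the genes and 221 in all were higher, with 76 lower, in place of 147 and 142 in all. The other 7 genes had log2 ratios between -0.26 and 0.043, with an SD of a single ratio of 0.12. By normalized signal 2 genes, CDKN1A and CDKN2B, were in the order DMSO, 5 µM, 20 µM from lowest to highest. CDKN1B, CDKN1C, CCND3, CCNE1 and CCNE2, 5 genes, were in the opposite order. The steps between the doses of CDKN1B, CDKN1C and CCND3, at -0.11, -0.025 and -0.10, are within that SD. For these the order of the 2 doses cannot be read. The share of all genes in either order is not given here, so the counts describe these genes only. Both doses were set against the same DMSO array, so the ratios at 5 and 20 µM share its error.

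The kinases and partners that these genes act on were followed through a list of G1/S genes. Of 27, 26 were detected in DMSO and at 20 µM, with 0 at least 1.5-fold higher, 3 at least 1.5-fold lower and a median log2 ratio of -0.12. The shares of all genes were 1.94% and 1.84%. CDKN3, a phosphatase that acts on CDKs and belongs to neither inhibitor family, had spot signals of 1512 in DMSO, 1060 with 5 µM and 589 with 20 µM, and a ratio of -1.19. CCNA2, the cyclin of S phase and G2, had 720, 535 and 302 and a ratio of -1.15. TFDP1, the partner of E2F proteins in binding DNA, stood at -0.66. CDKN2D, the fourth INK4 gene, was at -0.30 and RB1 at -0.25. The kinases took different directions: CDK4, the kinase that p15 binds, had spot signals of 1088, 1258 and 1277 and a ratio of 0.43, CDK6 stood at 0.065 and CDK2, the partner of cyclin E, at -0.43. At 5 µM the list had a median of -0.074 and 0 members past 1.5-fold either way, against 0.386% of all genes higher and 0.0871% lower. Between the doses 2 were at least 1.5-fold lower, CDKN3 and CCNA2, both at -1.03, where 0.886% of all genes were.

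Targets of E2F in S phase were mostly lower at 20 µM. Of 21, 20 were measured, 18 had ratios below 0, 9 were at least 1.5-fold lower and 1 was at least 1.5-fold higher, with a median log2 ratio of -0.51. Of all genes, 47.1% were below 0, 1.84% at least 1.5-fold lower and 1.94% higher. TYMS, which makes thymidylate, had spot signals of 1310 in DMSO, 800 with 5 µM and 569 with 20 µM, and a ratio of -1.05. PCNA, the sliding clamp, stood at -0.82, and the helicase subunits MCM6, MCM3, MCM2 and MCM4 at -0.76, -0.71, -0.70 and -0.68. GINS2 was at -0.61 and RRM1, a ribonucleotide reductase subunit, at -0.60. With CCNA2, which this list also holds, these are the 9. CDC6, which loads the helicase at origins, was the exception, with 878, 1291 and 1594 and a ratio of 1.05. At 5 µM the median of the list was -0.025, with CDC6, at 0.93, the 1 gene at least 1.5-fold higher, against 0.386% of all genes, and 0 lower, against 0.0871%. At that dose 9 of the 20 were above 0 and 11 below. PCNA and TYMS, at -0.39 each, were the lowest of the list, and CCNE1, another known target of E2F, stood at -0.41. The list as a whole did not share these low values.

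p27 and p21 are removed by the ubiquitin ligase subunit SKP2 with its cofactor CKS1B, and cyclin E by FBXW7. Of 16 turnover genes 15 were measured, with a median of -0.047 at 20 µM, and 1 was past 1.5-fold, on the low side, as 1.84% of all genes were. It was SKP2, with spot signals of 260 in DMSO, 194 with 5 µM and 145 with 20 µM and log2 ratios of -0.19 at 5 µM and -0.80 at 20 µM. CKS1B lay on the other side, at 0.53 for 20 µM, and FBXW7 at 0.13. At 5 µM 0 were past 1.5-fold, against 0.386% of all genes higher and 0.0871% lower.

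Factors known to act on the promoters of the inhibitors or of the G1 cyclins were also listed. Of 32, 30 were measured at 20 µM, with 4 at least 1.5-fold higher and 3 lower, against 1.94% and 1.84% of all genes, and a median of -0.048. The stress factor DDIT3 had spot signals of 3459 in DMSO, 5071 with 5 µM and 7362 with 20 µM and a ratio of 1.31, ETS1 stood at 0.74, and ATF3 and ATF4 at 0.60 each. ID2, an inhibitor of basic helix-loop-helix factors, was at -1.23, EGR1, an immediate early factor of growth signals, at -1.10, and ETS2 at -0.60. The factors most often tied to CDKN2B and CDKN1A lay closer to 0: SMAD3 at 0.035, SMAD4 at -0.027, ZBTB17, which encodes MIZ1, at -0.0091, KLF4 at 0.13 and SP1 at 0.18. MYC, a repressor of both genes, stood at 0.18, and FOXO3, an activator of CDKN1B, at -0.17. At 5 µM 1 factor was at least 1.5-fold higher, DDIT3 at 0.93, and 1 lower, ID2 at -0.81, against 0.386% and 0.0871% of all genes, with a median of -0.059.

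**Figure D4:**
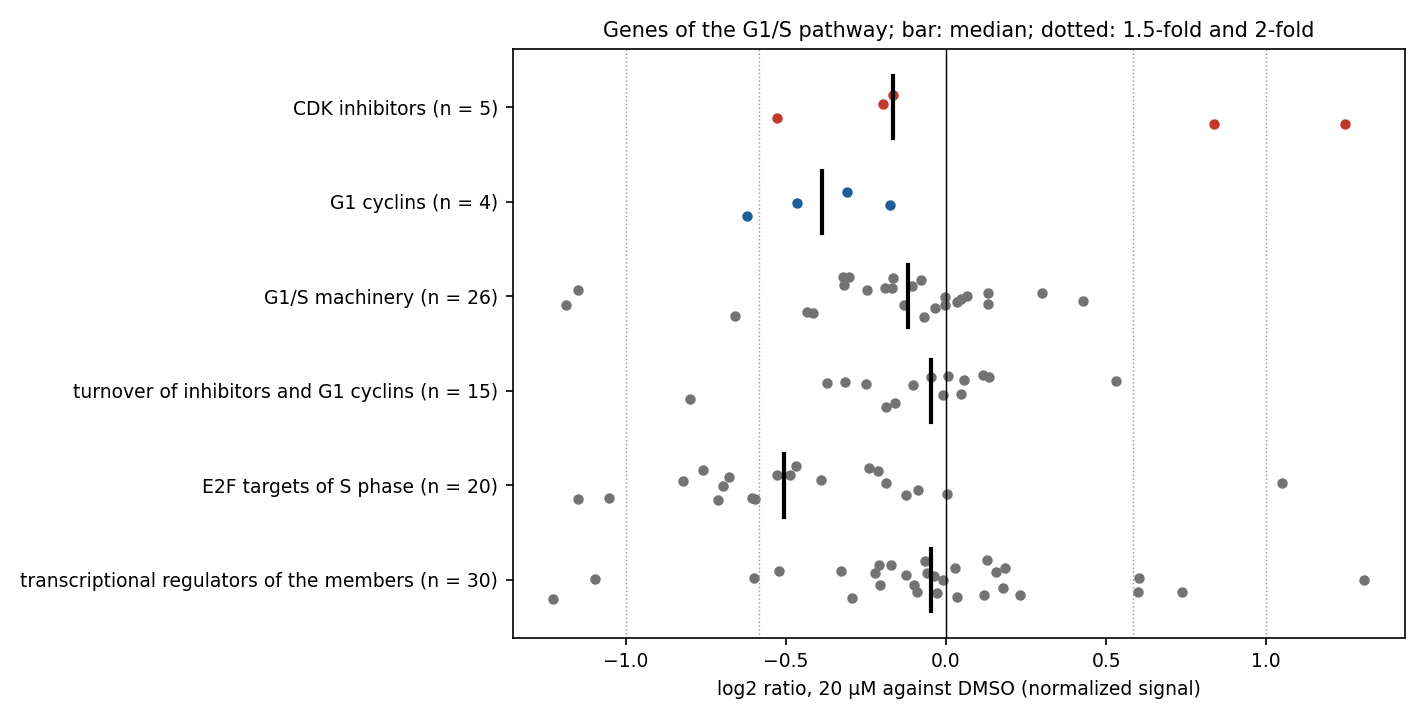
Log2 ratio for 20 µM against DMSO (horizontal axis) of each measured gene of the CDK inhibitors, the G1 cyclins and 4 lists of related genes, with the median of each as a black bar and 1.5-fold and 2-fold as dotted lines. The E2F targets have the lowest list median, -0.51, and the transcriptional regulators a median of -0.048.

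The genes most like each of the 3 genes past 1.5-fold were found by the distance between their pairs of log2 ratios to DMSO, over 15920 genes and 3 arrays. CDKN2B was closest to CA12, at 0.28 for 5 µM and 1.24 for 20 µM, followed by MOCOS and STEAP1, and 6 genes lay within a distance of 0.1. CDKN1A was closest to MLPH, PLAUR and NT5DC3, with 14 genes within that distance. CCNE1 was closest to FUCA1, HPF1 and ARV1, with 43. With only 2 ratios per gene, such nearness describes these arrays and no more. KRT20, a keratin of differentiated colon epithelium, had signals of 1167, 1146 and 1927 and log2 ratios of 0.31 and 0.92, near those of CDKN1A at 0.33 and 0.84. It was the 1 of 11 epithelial markers at least 1.5-fold apart at 20 µM, and the list did not share its direction. There 6 ratios were above 0 and 5 below, with a median of 0.035, LGALS4 at 0.54, EPCAM at -0.23, KRT19 at -0.27, KRT18 at -0.40 and VIL1 at -0.48.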

How the data were processed

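The deposited scanner files hold, per the file headers, the median brightness of each spot at 635 nm, a linear intensity without background removed, from an array read at 3 gains. The authors also deposited a value table of linear intensities, each column with a median of 25. How the spots were extracted and the value table computed is not given in sources used here. Spot signals went through the normexp correction of limma 3.58.1 (R 4.3.3) with an offset of 50, fitted to all spots, before log2 and quantile normalization over the gene probes. The scanner's background column rose with spot signal (Spearman correlation across spots 0.967 in DMSO) and served as an alternative only. Blank and negative control spots numbered 480 per array, and 5% were trimmed at each end before the detection threshold was set. For a gene with several probes, that detected on most arrays and then brightest stood for it. Of 21707 named probes, 21675 matched a current gene record. The number of arrays limits the precision. Python 3.11.15, numpy 2.4.6, pandas 2.3.3 and matplotlib 3.10.9 were used, and the steps were tested on simulated data.

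With 1 array per group no test was made. The genes, lists and thresholds were chosen with earlier results of these data known. Named are all genes of the rule and, from each list reported, those at least 1.5-fold from DMSO at 20 µM or otherwise the 3 farthest from 0. The 3 nearest genes of each gene past 1.5-fold are also named. MTAP, DMRTA1, COL1A1, COL1A2 and the other list members within 1.5-fold were named after their values were seen. A list of related genes is not reported here.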

Additional observations from a re-analysis of the deposited data

Results flagged for a closer look

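CDKN2A was the 1 gene with ratios of opposite sign at the 2 doses: its log2 ratio to DMSO was 0.06 at 5 µM and -0.20 at 20 µM. The difference was not tested, since each group had 1 array, and the value at 5 µM is within the SD of 0.11 of a single ratio. Under median scaling the ratio at 5 µM was -0.14, and in the authors' value table it was -0.0033.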

How the results depend on the processing

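The ratios of CDKN1A and CDKN2B at 20 µM stayed above 0, and those of the other 7 genes below 0, under 7 alternatives: no background correction, the authors' value table, an offset of 16, median scaling, a threshold at 5 SD, no detection filter and the mean over probes. The count of the 9 genes at least 1.5-fold lower at 20 µM, 1 as reported, was 0 without background correction, 4 in the value table, 2 with the offset of 16, 2 under median scaling and 0 with the mean over probes. Over all genes it was 295 as reported, and 235, 1143, 509, 502 and 281 under these settings in turn. At 5 µM the count among the 9 went from 0 to 1 in the value table and to 1 under median scaling. Over all genes that count went from 14 to 459 and to 137. The count at least 1.5-fold higher at 20 than at 5 µM went from 1 to 2 in the value table and to 2 under median scaling. Over all genes it went from 147 to 737 and to 221. The medians of the value table were -0.56 at 20 µM and -0.33 at 5 µM. The scanner's background column was the eighth alternative, and it turned the main results. Under it 0 of the 9 genes were at least 1.5-fold higher and 0 lower at 20 µM, where 877 and 893 of 16062 genes were. At 5 µM 1 was higher, as 708 of 16075 genes were, and the median of the 9 was 0.048. For 20 against 5 µM 0 were higher and 2 lower, against 793 and 842 of 16036 genes. The log2 ratios at 20 µM became -0.49 for CDKN1A, -0.32 for CDKN2B, 0.46 for CCND1, 0.55 for CCND3 and 0.032 for CCNE1, so that 5 of 9 genes turned, as did 4 at 5 µM and 4 between the doses. The value of CDKN2B between the doses became -0.95. In that column the value for CDKN2B was 650 in DMSO and 1440 at 20 µM, above the spot's own signal. Signal over background limits CDKN1C and both cyclins E most. No paired analysis was possible because each group had 1 array.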

Other observations

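The kinase that activates CDKs consists of CDK7, cyclin H (CCNH) and MNAT1. The spot signal of CCNH was 979 in DMSO, 598 with 5 µM and 946 with 20 µM, with the 5 µM array below the others, and log2 ratios to DMSO of -0.39 at 5 µM and 0.13 at 20 µM. CDK7 had 1192, 827 and 1096, again lowest at 5 µM, with ratios of -0.21 and 0.046. MNAT1 had 207, 170 and 176, also lowest at 5 µM in spot signal, with ratios of -0.076 and -0.11. Its step between the doses, -0.03, is within the SD of 0.12 of a single ratio. These genes were singled out after their values were seen.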
